A study of Mus with 8 samples.

Results

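The mouse *Hox* genes were examined as a group in 3T3-L1 preadipocytes with a normal or a lowered level of Prep1, before and after adipogenic induction. The members were taken by symbol, as every gene of the count table named *Hoxa*, *Hoxb*, *Hoxc* or *Hoxd* followed by a number. This gave 39 genes of the 24013 in the table. They comprised 11 genes of cluster A, 10 of cluster B, 9 of cluster C and 9 of cluster D. Of these, 23 had enough counts to be tested and 16 did not.

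*Hox* genes encode homeodomain transcription factors. They lie in clusters, and genes at the same position in different clusters are called paralogs and are similar in sequence. Low-numbered (anterior) genes are used towards the head and high-numbered (posterior) genes towards the tail, and fibroblasts and preadipocytes keep a *Hox* pattern that reflects the body region they came from. Hox proteins bind DNA together with TALE homeodomain proteins, which are the Pbx, Meis and Prep families, and Prep1 reaches the nucleus as a partner of Pbx. Polycomb proteins hold *Hox* genes silent, MLL proteins keep them active, and retinoic acid turns on the anterior genes.

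RNA-seq was performed on 3T3-L1 cells, an established mouse line of preadipocytes, that had been infected with a lentivirus. C cells carried a scrambled control and P cells carried 1 shRNA against Prep1. Each kind of cell was collected at day −2, before induction and in medium with BCS serum (uninduced cells), and at day 1, which is 24 hours after induction (induced cells). At day 1 the medium held 1 μM dexamethasone, 0.5 mM IBMX and 1 μg/ml insulin, with FBS as the serum, so that days differ in hormones, serum and time in culture, and these cannot be told apart. C day −2, P day −2, C day 1 and P day 1 had 2 biological replicas each, which makes 8 libraries of 1 cell line with a single shRNA sequence against Prep1.

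The libraries held between 20428816 and 27614353 counts, and 3 counts corresponded to between 0.107 and 0.160 normalised counts (CPM, the counts scaled to a common library size with TMM factors). *Pknox1*, which encodes Prep1, had 28.1 and 26.5 CPM in replicas 1 and 2 of uninduced C cells and 17.3 and 18.3 CPM in P cells. At day 1 C cells had 38.1 and 36.5 CPM and P cells 23.6 and 23.8 CPM. Each P library was thus below each C library of the same or the other day, with log2 ratios of −0.62 ± 0.14 (SE) at day −2 and −0.65 ± 0.14 at day 1 and adjusted p-values of 0.0558 and 0.0575 (quasi-likelihood test of edgeR, adjusted over all genes by Benjamini-Hochberg). All 10 markers of preadipocytes and fibroblasts were measured, and the summed markers of endothelial, epithelial, neural and muscle cells stayed at or below 1.86 CPM in every library. *Csf1r* was the only one of 5 immune markers with enough counts to be tested, and it was lower at day 1 in C cells (log2 ratio −4.46) and P cells (−2.63) and lower in uninduced P than uninduced C cells (−1.55). The immune list summed to 6.46 and 5.23 CPM in uninduced C cells, 2.34 and 1.96 CPM in uninduced P cells and 0.51 to 0.64 CPM at day 1, and its part in the *Hox* results was not tested. The replicas of uninduced P cells stood apart from each other. Over 5645 well-measured genes, the SD of the log2 difference between replicas was 0.789 there, against 0.136 in uninduced C cells, 0.259 in induced C cells and 0.121 in induced P cells.

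The *Hox* genes with signal were mostly anterior and central members of clusters A, B and D. By position, 6 of 8 anterior genes (positions 1 to 3), 12 of 15 central genes (4 to 8) and 5 of 16 posterior genes (9 to 13) could be tested. By cluster, these were 7 genes of A, 8 of B (*Hoxb2* to *Hoxb6*, *Hoxb8*, *Hoxb9* and *Hoxb13*), 4 of C (*Hoxc4*, *Hoxc6*, *Hoxc9* and *Hoxc13*) and 4 of D (*Hoxd3*, *Hoxd4*, *Hoxd8* and *Hoxd9*). As counts, with no regard to length, cluster A took 44.6% of the *Hox* total, cluster D 33.9%, cluster B 17.1% and cluster C 4.39%. In cluster A the run of measured genes ended at *Hoxa7*, and *Hoxa9*, *Hoxa10*, *Hoxa11* and *Hoxa13* stayed at 10 counts or fewer in any library.

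The highest level per length in each cluster was that of *Hoxa2*, *Hoxb2*, *Hoxc13* and *Hoxd8*. Their means over the 8 libraries were 8.82, 3.42, 0.464 and 8.40 CPM per kb, where the length is the span of the gene with its introns, since exon lengths were not used here. *Hoxa2*, the selector gene of the second branchial arch, had 16.1 and 15.3 CPM in uninduced C cells and 13.7 and 20.8 CPM in uninduced P cells. At day 1 C cells had 29.2 and 22.5 CPM and P cells 29.4 and 23.4 CPM. All of its day 1 libraries were above all of its day −2 libraries, and C and P cells overlapped on each day.

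The 16 genes that were not tested were close to the detection floor. *Hoxa10* reached 10 counts in 2 P libraries, *Hoxd10* reached 9 counts in replica 1 of uninduced P cells and *Hoxc5* reached 8 counts in replica 1 of induced P cells. *Hoxb1* and *Hoxd12* reached 6 counts and *Hoxb7* reached 5. *Hoxa9*, *Hoxa11*, *Hoxa13*, *Hoxc8*, *Hoxc10*, *Hoxc11*, *Hoxd1*, *Hoxd11* and *Hoxd13* had at most 3 counts in any library. *Hoxc12* had 0 counts in all 8, which allows up to 3 counts per library, and such limits cover counting error only. Changes of these genes were not detectable at this depth.

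**Figure D1:**
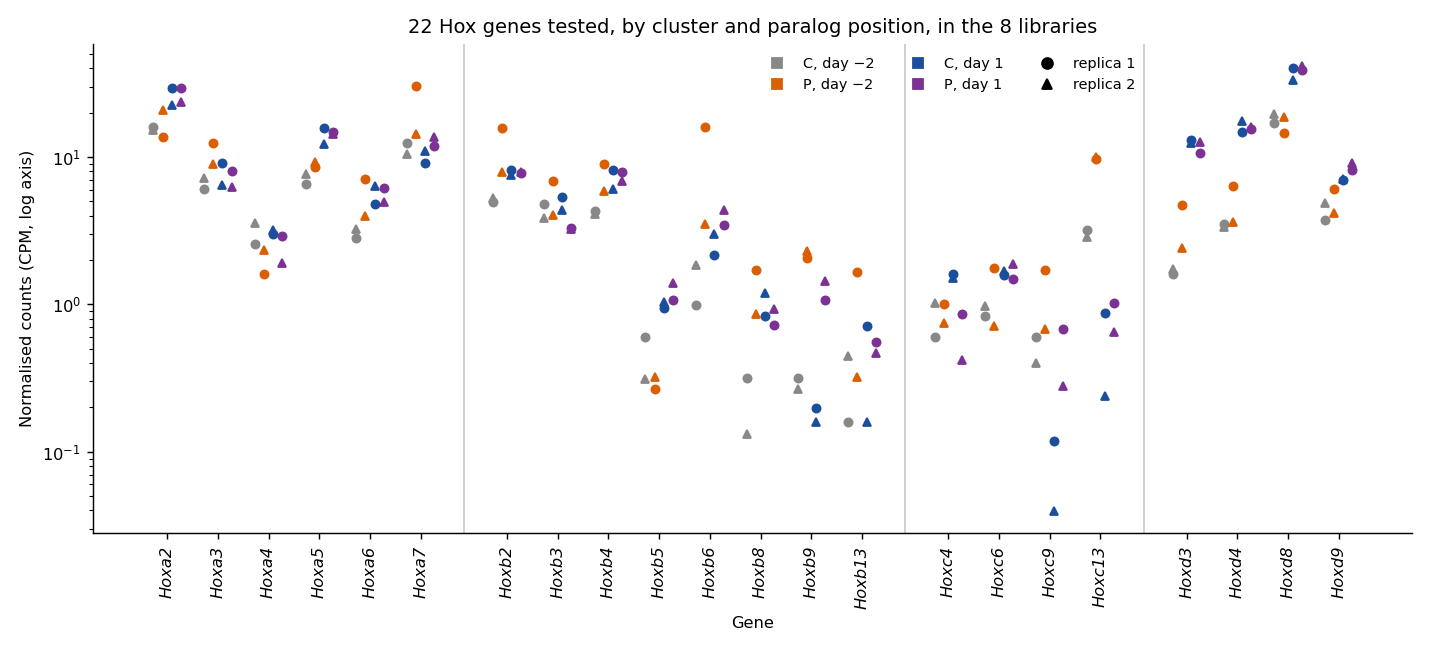
Normalised counts (CPM, log axis) of 22 of the 23 Hox genes tested, in cluster and paralog order along the horizontal axis, for each of the 8 libraries (colour, condition; circle, replica 1; triangle, replica 2). Hoxd8 and Hoxa2 have the highest levels, also per length, Hoxd3 and Hoxd4 separate by day, and in Hoxb6 replica 1 of uninduced P cells lies at 16.0 CPM, above the other libraries.

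The next question was how the adipogenic cocktail affected these genes. Calls needed an adjusted p-value under 0.1 together with a ratio over 2 or under 0.5. In C cells, 4 of the 23 *Hox* genes were called higher at day 1 than at day −2 (*Hoxb8*, *Hoxd3*, *Hoxd4* and *Hoxd8*), against 10.7% of all genes tested. Lower at day 1 were 2 (*Hoxc9* and *Hoxc13*), against 9.68% of all genes. In P cells, 4 were higher (*Hoxb5*, *Hoxd3*, *Hoxd4* and *Hoxd8*), against 7.65% of all genes, and 1 was lower (*Hoxc13*), against 10.4%. As shares of the 23 genes these are 17.4% and 8.70% for C cells, then 17.4% and 4.35% for P cells, and no test of the shares against all genes was made. *Hoxd3*, *Hoxd4* and *Hoxd8* were called higher, and *Hoxc13* lower, in both kinds of cells, which share no library in these comparisons.

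The median response was described by cluster. The 4 genes of cluster D all had positive log2 ratios, with a median of 1.62 in C cells and 1.47 in P cells. The 4 genes of cluster C had medians of −0.80 and −0.86, which lie between unlike genes. In C cells *Hoxc4* and *Hoxc6* had 0.95 and 0.84, while *Hoxc9* and *Hoxc13* had −2.58 and −2.44. In P cells these 4 genes had −0.45, 0.47, −1.26 and −3.54. The medians of cluster A were 0.23 and 0.01, and those of cluster B 0.69 in C cells and −0.67 in P cells. The P median of cluster B hung on 1 library, being −1.01 with only replica 1 of uninduced P cells and 0.06 with only replica 2. The P medians of clusters A, C and D were −0.35, −1.22 and 1.32 with replica 1, and 0.05, −0.36 and 1.60 with replica 2. Over the 23 genes the P median was −0.45, and −0.50 and 0.15 with the one and the other replica. Over all genes tested the medians were −0.01 and 0.02. Differences between clusters were not tested. By position, the anterior genes had medians of 0.43 and −0.53, the central genes 0.92 and 0.15 and the posterior genes −0.70 and −0.90. These P medians were not split by replica. Scaling by library totals in place of TMM moved the median of all genes to −0.115 for the induction of C cells and 0.195 for that of P cells, and to −0.175 and 0.114 in P against C cells at the earlier and the later day.

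In cluster D, *Hoxd3* had the largest log2 ratio of the *Hox* genes in C cells. Its level was 1.59 and 1.73 CPM in uninduced C cells and 12.9 and 12.4 CPM at day 1. In P cells it was 4.69 and 2.43 CPM at day −2 and 10.6 and 12.7 CPM at day 1. Every day 1 library thus lay above every day −2 library, and replica 1 of P cells was the highest of the day −2 libraries. The log2 ratio of day 1 to day −2 was 2.93 ± 0.34 (SE, adjusted p = 0.00146) in C cells and 1.72 ± 0.32 (adjusted p = 0.0113) in P cells. The difference between these responses was −1.20 ± 0.45 (adjusted p = 0.309).

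*Hoxd4*, its neighbour in the cluster, had 3.51 and 3.32 CPM in uninduced C cells and 14.8 and 17.4 CPM at day 1. In P cells it had 6.34 and 3.60 CPM at day −2 and 15.4 and 15.9 CPM at day 1. The days did not overlap in either kind of cells. Induction gave a log2 ratio of 2.24 ± 0.29 (adjusted p = 0.00231) in C cells and 1.67 ± 0.28 (adjusted p = 0.00846) in P cells. The annotated span of *Hoxd3* overlaps that of *Hoxd4*, of the microRNA gene *Mir10b* and of the antisense RNA *Hoxd3os1*, and the use of the strand in the counting is not given in the sources used here. Reads shared between these genes are therefore possible, and the split of the counts between *Hoxd3* and *Hoxd4* is uncertain.

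*Hoxd8* was the gene of cluster D with the highest level. It had 16.9 and 19.6 CPM in uninduced C cells and 14.5 and 18.7 CPM in uninduced P cells. At day 1 C cells had 39.9 and 33.4 CPM and P cells 38.8 and 41.2 CPM. The days did not overlap, and C and P cells overlapped on each day. Its log2 ratio was 1.27 ± 0.19 (adjusted p = 0.00552) in P cells and 1.00 ± 0.19 (adjusted p = 0.0103) in C cells. The C ratio sits on the threshold of 2 and fell under it without replica 1 of uninduced C cells (log2 ratio 0.91), without replica 1 of induced C cells (0.90), with library totals (0.89), with a filter of 10 counts in every library (0.99) and with DESeq2 size factors (0.999). *Hoxd9*, the remaining gene of the cluster, had log2 ratios of 0.72 ± 0.26 (adjusted p = 0.0849) and 0.76 ± 0.26 (adjusted p = 0.0794), with ratios under 2.

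In cluster C, *Hoxc13* was lower at day 1 in both kinds of cells. This posterior gene is known for its role in hair and nail formation. It had 3.19 and 2.88 CPM in uninduced C cells and 0.868 and 0.239 CPM at day 1. In P cells it had 9.64 and 10.1 CPM at day −2 and 1.03 and 0.654 CPM at day 1. All day −2 libraries were above all day 1 libraries. Induction gave log2 ratios of −2.44 ± 0.52 (adjusted p = 0.0154) in C cells and −3.54 ± 0.51 (adjusted p = 0.00448) in P cells. The C ratio was −3.61 without replica 1 and −1.79 without replica 2 of induced C cells. These calls, like those of *Hoxd3* and *Hoxd4*, were kept when any 1 library was left out.

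*Hoxc9*, which is used as a marker of white fat, rested on few counts. It had 0.598 and 0.399 CPM in uninduced C cells and 0.118 and 0.0398 CPM at day 1, the last 2 values being 3 counts and 1 count. In P cells it had 1.70 and 0.678 CPM at day −2 and 0.684 and 0.28 CPM at day 1. C cells were lower in both day 1 replicas, whereas the days overlapped in P cells, at 0.68 CPM. The log2 ratio was −2.58 ± 0.89 (adjusted p = 0.0751) in C cells and −1.26 ± 0.70 (adjusted p = 0.232) in P cells. The C call was lost when any library of C cells, or either P library of day 1, was left out, with adjusted p-values between 0.101 and 0.298.

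In cluster B, *Hoxb8* and *Hoxb5* were each called in 1 kind of cells. *Hoxb8*, known to hold back the maturation of myeloid progenitors when over-expressed, had 0.319 and 0.133 CPM in uninduced C cells and 0.829 and 1.19 CPM at day 1. In P cells it had 1.70 and 0.856 CPM at day −2 and 0.726 and 0.934 CPM at day 1. The C libraries of day −2, at 8 and 3 counts, were the low ones, and the other 6 libraries overlapped. The log2 ratio was 2.12 ± 0.62 (adjusted p = 0.0449) in C cells and −0.61 ± 0.55 (adjusted p = 0.452) in P cells. The difference between them was −2.73 ± 0.82 (adjusted p = 0.217). The C call was lost without any 1 of the 4 C libraries, with adjusted p-values between 0.105 and 0.251.

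*Hoxb5* had 0.598 and 0.31 CPM in uninduced C cells and 0.947 and 1.04 CPM at day 1. In P cells it had 0.266 and 0.321 CPM at day −2 and 1.07 and 1.40 CPM at day 1. The days did not overlap in C or in P cells. The log2 ratio was 2.04 ± 0.50 (adjusted p = 0.03) in P cells and 1.11 ± 0.47 (adjusted p = 0.130) in C cells. The P call was lost without replica 1 (adjusted p = 0.114) or replica 2 (adjusted p = 0.183) of induced P cells, and in a fit of the P libraries alone (adjusted p = 0.117). A fit of the C libraries alone called the gene in C cells. The difference between the responses was 0.93 ± 0.68 (adjusted p = 0.483).

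No gene of cluster A was called in either kind of cells. *Hoxa5* came closest, with a log2 ratio of 0.98 ± 0.20 (adjusted p = 0.0133) in C cells and 0.72 ± 0.20 (adjusted p = 0.0453) in P cells, both under the threshold on the ratio. It was named after its values were seen. The lowest log2 ratio of cluster A in P cells was −0.80 (*Hoxa7*).

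**Figure D2:**
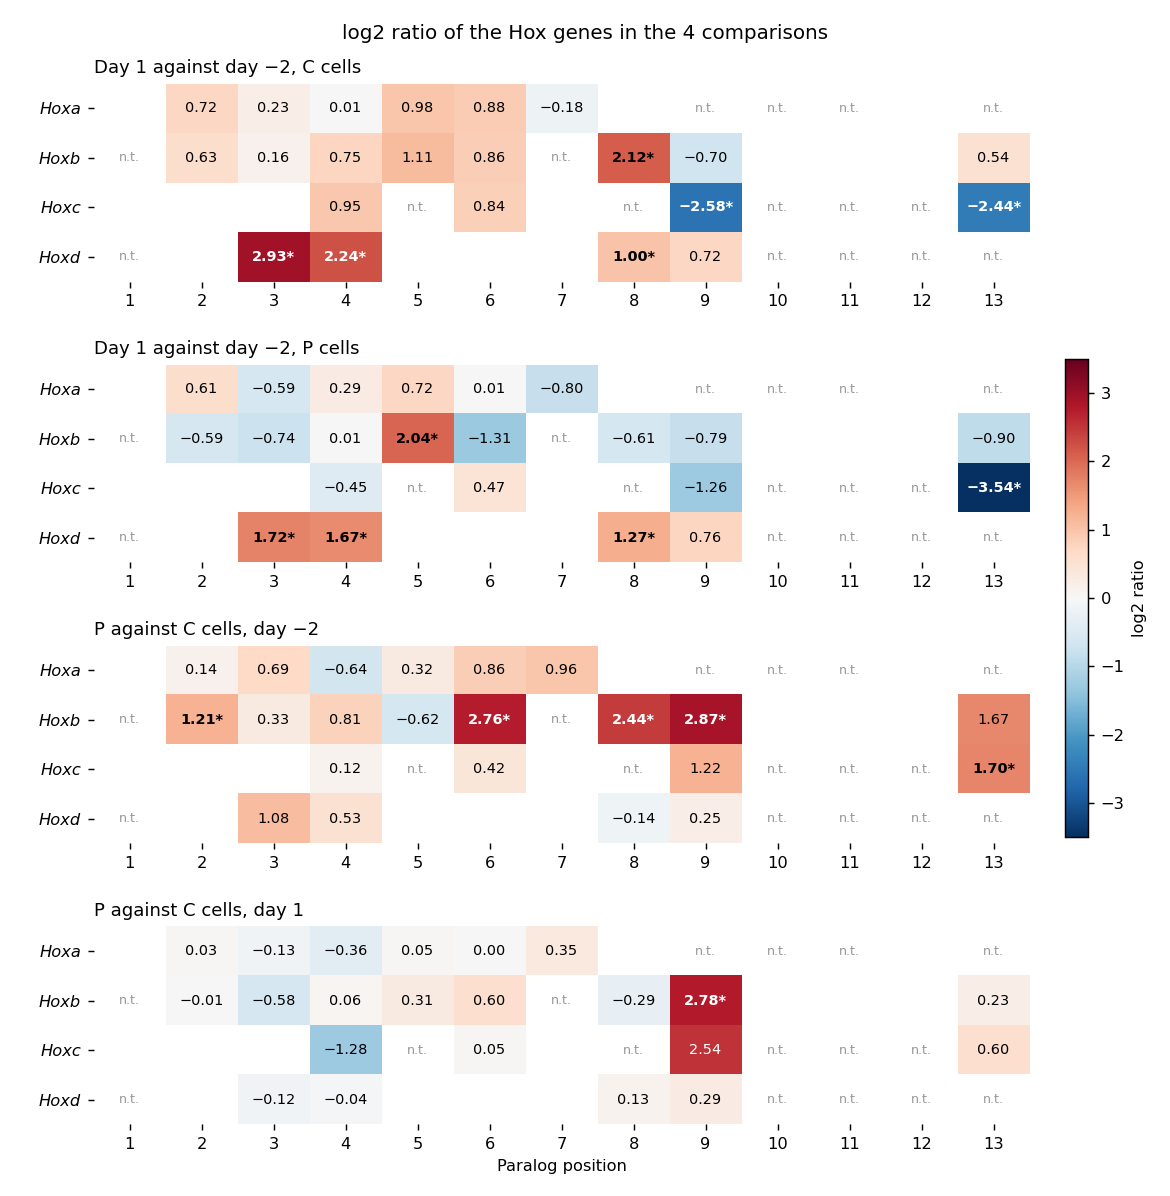
log2 ratio of the Hox genes (colour and number; bold with an asterisk where called; n.t., in the table but not tested; blank, no such gene or not shown) by cluster and paralog position in the 4 comparisons. Cluster D positions 3, 4 and 8 are called higher at day 1 in both kinds of cells, Hoxc13 lower, and the genes called in P against C cells before induction lie in cluster B and at Hoxc13.

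The lowering of Prep1 was examined next, at day −2. In P cells, 5 *Hox* genes were higher than in C cells, or 21.7%, against 4.83% of all genes tested. They were 4 genes of cluster B (*Hoxb2*, *Hoxb6*, *Hoxb8* and *Hoxb9*) and *Hoxc13*. None of the 23 was lower, against 2.15% of all genes. None was lower at an unadjusted p under 0.05 or by DESeq2 either, whereas DESeq2 called 6 higher, the additional one being *Hoxd3*. Here and below, shares of all genes are not given for counts by DESeq2 or at an unadjusted p, so these counts are a description. The median log2 ratio was 0.69 over the 23 genes, 1.44 in cluster B, 0.82 in cluster C, 0.39 in cluster D and 0.32 in cluster A, against 0.01 over all genes tested, and 19 of the 23 were positive. These medians cover only members that passed the filter on low counts, and with no filter the median over 38 *Hox* genes was 0.32. They also moved with the P replica used. With only replica 1 of uninduced P cells the medians were 0.95 over the 23 genes and 2.03 in cluster B, and with only replica 2 they were 0.39 and 0.57. Clusters A, C and D had medians of 0.26, 1.30 and 0.69 with replica 1, and 0.39, 0.18 and 0.06 with replica 2. *Hoxb9* passed the filter through P libraries alone, and every other gene had a library of C cells and of P cells past it. A gene that enters in this way had to differ, so that the call and p-values of *Hoxb9* in P against C cells are a description and support nothing. Without it the calls were 4 of 22 genes at day −2 and 0 at day 1, and the day −2 median was 0.61. The cluster B median at day −2 was then 1.21, or 1.62 with only replica 1 and 0.48 with only replica 2.

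The call depended on which libraries were used. Without replica 1 of uninduced P cells the genes called were *Hoxb6*, *Hoxb9* and *Hoxc13*, 3 in all, and without replica 2 there were 11. Leaving out the one or the other C replica of day −2 gave no call. Leaving out the one or the other C replica of day 1 gave 2 (*Hoxb9* and *Hoxc13*), and leaving out the one or the other P replica of day 1 gave 1 (*Hoxb9*). A fit of the day −2 libraries alone gave 0, and scaling by library totals gave 3 (*Hoxb6*, *Hoxb8* and *Hoxb9*). A lone replica was assumed to vary like the other groups in these fits. With 2 replicas against 2, an exact permutation test of a single gene cannot go below p = 0.333 (two-sided), so that the p-values rest on the spread pooled over genes and groups.

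*Hoxb9*, which takes part in patterning the thoracic skeleton, differed between P and C cells on both days. It had 0.319 and 0.266 CPM in uninduced C cells and 2.08 and 2.28 CPM in uninduced P cells, the counts being 8 and 6 against 39 and 64. At day 1 it had 0.197 and 0.159 CPM in C libraries against 1.07 and 1.45 CPM in P libraries, from 5 and 4 against 25 and 31 counts. The 4 P libraries were all above the 4 C libraries. P cells differed from C cells by a log2 ratio of 2.87 ± 0.42 (adjusted p = 0.0129) at day −2 and 2.78 ± 0.45 (adjusted p = 0.0238) at day 1. The p-values of *Hoxb9* are a description, since it passed the filter through P libraries alone. In a fit of the day −2 libraries alone the adjusted p was 0.132. Leaving out either C replica gave 0.161 and 0.173 at day −2, and leaving out any 1 of the 4 libraries of day 1 gave adjusted p-values between 0.142 and 0.214 at day 1. The summed fat cell markers were also higher in P than in C cells. Of 5 (*Adipoq*, *Fabp4*, *Plin1*, *Cidec* and *Lep*), 4 were tested, and *Lep* had at most 3 counts. Of the 4, 3 were higher in P cells before and 4 after induction, against 4.83% and 1.83% of all genes. Their sum was 2.31 and 2.66 CPM in uninduced C cells and 33.9 and 22.3 CPM in uninduced P cells, and 1.66 and 1.95 CPM in induced C cells and 129 CPM in each induced P replica. From day −2 to day 1 in P cells this sum rose, and the log2 ratio of *Hoxb9* was −0.79 ± 0.37 (adjusted p = 0.171). The part of fat cells in the *Hoxb9* level was not tested.

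*Hoxc13* was higher in uninduced P cells in both replicas alike, at 9.64 and 10.1 CPM against 3.19 and 2.88 CPM in uninduced C cells. The log2 ratio was 1.70 ± 0.45 (adjusted p = 0.0823), and 1.51 (adjusted p = 0.128) with library totals. At day 1 its levels in P and C cells overlapped, and the log2 ratio was 0.60 ± 0.55 (adjusted p = 0.722).

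The other 3 genes of cluster B were higher in replica 1 than in replica 2 of P cells. *Hoxb6* had 0.996 and 1.86 CPM in uninduced C cells and 16.0 and 3.5 CPM in uninduced P cells. At day 1 C cells had 2.17 and 2.99 CPM and P cells 3.46 and 4.34 CPM. Both P replicas of day −2 were above both C replicas, but the replicas of P cells differed by 2.19 on the log2 scale. P cells differed from C cells by a log2 ratio of 2.76 ± 0.72 (adjusted p = 0.0785) at day −2 and 0.60 ± 0.68 (adjusted p = 0.796) at day 1.

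*Hoxb2*, a hindbrain gene whose enhancer is known to bind Hox, Pbx and Prep or Meis proteins, had 4.94 and 5.27 CPM in uninduced C cells and 15.8 and 7.95 CPM in uninduced P cells. At day 1 the C and P libraries overlapped, with 8.21 and 7.56 CPM against 7.74 and 7.94 CPM. Replica 1 of uninduced P cells was the only library above 9 CPM, and replica 2 was level with day 1. P cells differed from C cells by a log2 ratio of 1.21 ± 0.32 (adjusted p = 0.0819) at day −2 and −0.01 ± 0.32 (adjusted p = 0.994) at day 1. Without replica 1 of P cells the day −2 ratio was 0.65 (adjusted p = 0.0414), under the threshold of 2.

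*Hoxb8*, with the values given above, was higher in both P replicas of day −2 than in the C replicas. Its log2 ratio was 2.44 ± 0.62 (adjusted p = 0.0715), and 1.89 (adjusted p = 0.119) without replica 1 of P cells. At day 1 the P and C libraries overlapped.

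**Figure D3:**
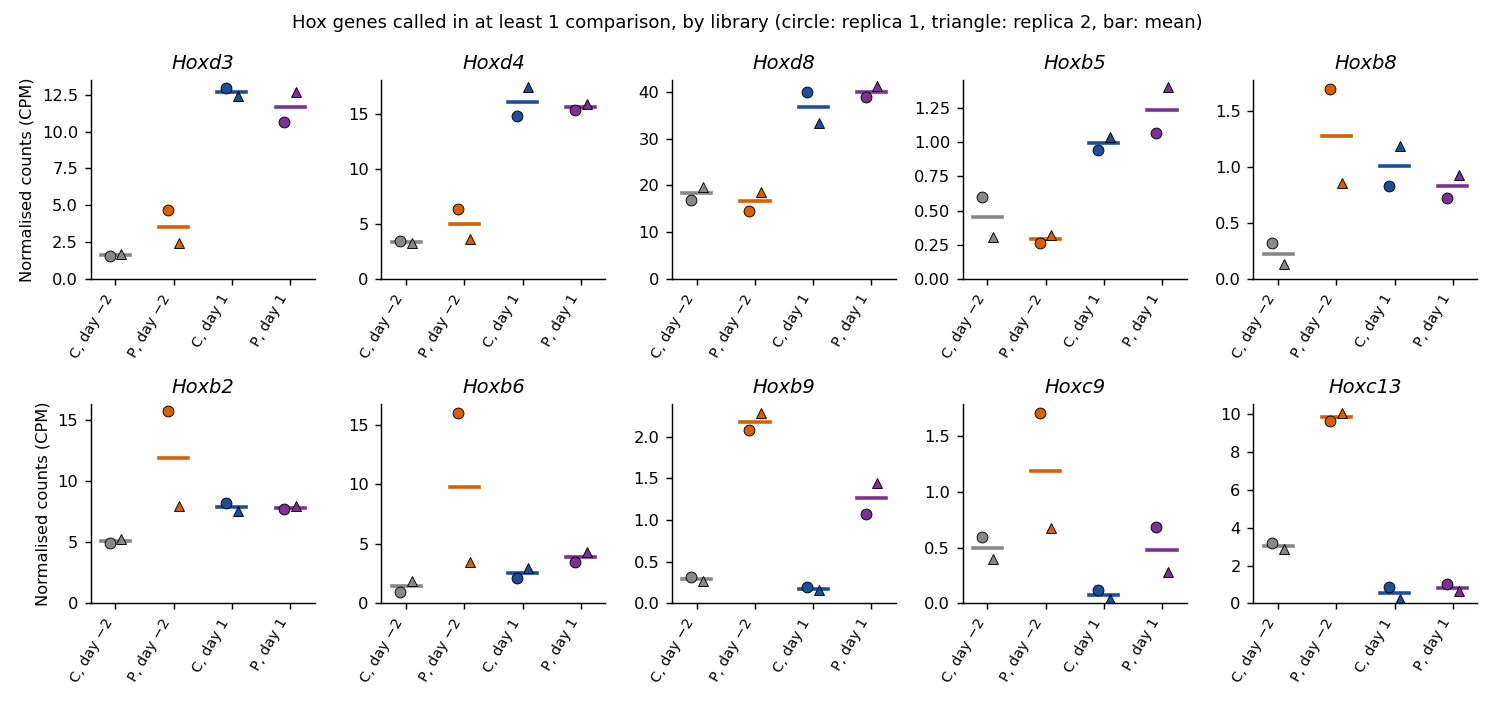
Normalised counts (CPM, linear axis from 0) in each library of the 10 Hox genes called in at least 1 comparison (circle, replica 1; triangle, replica 2; bar, mean of the condition). Hoxb9 is higher in the 4 P libraries, Hoxc13 is highest in both P replicas of day −2, and Hoxb6, Hoxb2 and Hoxc9 have 1 high library, which is replica 1 of uninduced P cells.

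The replicas of uninduced P cells were then compared with C cells one by one, as ratios to the mean of the C replicas with no test. In replica 1, 11 *Hox* genes had a ratio over 2, against 15.4% of all genes, and 0 had a ratio under 0.5, against 20.9%. They were *Hoxa6*, *Hoxa7*, *Hoxb2*, *Hoxb4*, *Hoxb6*, *Hoxb8*, *Hoxb9*, *Hoxb13*, *Hoxc9*, *Hoxc13* and *Hoxd3*. In replica 2, 4 had a ratio over 2 (*Hoxb6*, *Hoxb8*, *Hoxb9* and *Hoxc13*), against 5.77% of all genes, and 0 had a ratio under 0.5, against 5.45%. The 4 genes past a ratio of 2 in replica 2 were all among the 11 of replica 1.

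*Hoxb9* and *Hoxc13* had like values in the replicas. The log2 ratio of *Hoxb9* was 2.83 in replica 1 and 2.97 in replica 2, and that of *Hoxc13* was 1.67 and 1.73. In contrast, *Hoxb6* had 3.48 and 1.29, *Hoxb8* 2.92 and 1.92, and *Hoxb2* 1.63 and 0.64. *Hoxb13* had 2.45 and 0.09, *Hoxd3* 1.5 and 0.55, *Hoxa7* 1.41 and 0.33, and *Hoxc9* 1.77 and 0.44. Summed over a cluster, cluster B had 53.6 and 25.3 CPM in these P replicas against 16.6 and 16.3 CPM in C cells. Cluster D had 32.2 and 28.9 CPM in P cells against 25.8 and 30.0 CPM in C cells, which overlapped. The SD of the log2 difference between the replicas over the 23 *Hox* genes was 0.629 in uninduced P cells, against 0.298 to 0.361 in C cells and 0.292 in induced P cells.

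Other genes moved with the same replica. The 10 preadipocyte and fibroblast markers summed to 78409 CPM in replica 1 and 22168 CPM in replica 2 of uninduced P cells, against 16128 to 17333 CPM in C cells. *Col1a1*, a collagen gene, had 23559 and 4882 CPM in those P replicas, and the Polycomb gene *Cbx7* had 11.6 and 1.61 CPM. The TMM factor of replica 1 was 0.837, the lowest of the 8 libraries. The part of these shifts in the *Hox* values of replica 1 was not tested. In these bulk libraries, a change in the share of cells and a change in RNA per cell cannot be told apart.

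When the test was repeated with 1 replica of uninduced P cells at a time, replica 1 gave 11 *Hox* genes higher and 0 lower than in C cells, where 14% of all genes were called higher and 17.3% lower. Replica 2 gave 3 higher (*Hoxb6*, *Hoxb9* and *Hoxc13*) and 0 lower, where 3.94% and 2.55% of all genes were called. The log2 ratio of *Hoxb9* was 2.80 with replica 1 and 2.95 with replica 2, and that of *Hoxc13* was 1.66 and 1.74. The values of *Hoxb9* are a description, since it passed the filter through P libraries alone. The induction of P cells gave 4 *Hox* genes higher and 6 lower with replica 1, where 19.8% of all genes were called higher and 15.9% lower. With replica 2 it gave 6 higher and 1 lower, where the shares of all genes were 7.3% and 7.79%. *Hoxb5*, *Hoxd3*, *Hoxd4* and *Hoxd8* were higher and *Hoxc13* lower at day 1 in both of these fits.

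**Figure D4:**
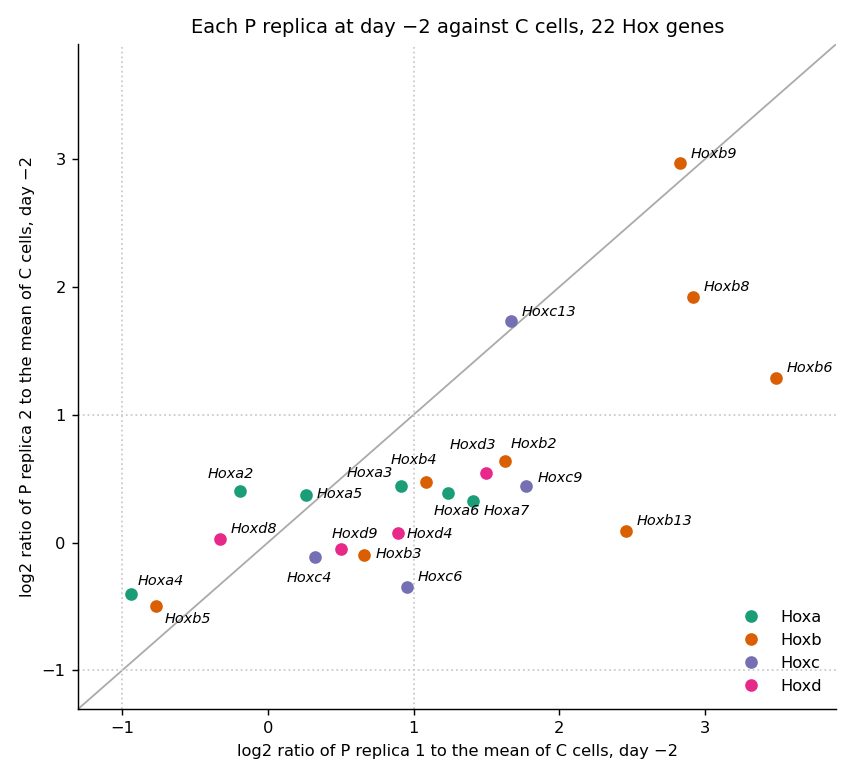
log2 ratio of replica 1 (horizontal axis) and of replica 2 (vertical axis) of uninduced P cells to the mean of uninduced C cells, for 22 of the 23 Hox genes tested (colour, cluster; solid line, equal ratios; dotted lines, ratios of 2 and 0.5). Hoxb9 and Hoxc13 lie near the line of equal ratios, while Hoxb6, Hoxb8 and Hoxb13 lie to the right of it.

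At day 1, *Hoxb9* was the 1 *Hox* gene higher in P than in C cells, or 4.35% of the 23, against 1.83% of all genes tested. It passed the filter on low counts through P libraries alone, so that its call is a description and supports nothing. None of the *Hox* genes was lower, against 2.23% of all genes. *Hoxc4* alone was lower at an unadjusted p under 0.05 (log2 ratio −1.28 ± 0.50, adjusted p = 0.263), and DESeq2 called none lower. *Hoxc9* had a log2 ratio of 2.54 ± 0.90 (adjusted p = 0.215), from 16 and 6 counts in P libraries against 3 and 1 in C libraries. *Hoxc4* was named after its values were seen. The median over the 23 genes was 0.05, against 0.01 over all genes. By cluster the medians were 0.00 in A, 0.15 in B (0.06 without *Hoxb9*), 0.32 in C and 0.04 in D. The summed *Hox* level was 183 and 163 CPM in induced C cells and 182 and 179 CPM in induced P cells. Before induction it was 101 and 108 CPM in C libraries and 181 and 133 CPM in P libraries.

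The comparisons of P with C cells at day −2 share their libraries with the inductions, so that a gene that is high in uninduced P cells also has a lower induction in P cells. The difference between the inductions of P and C cells was therefore tested as an interaction. No *Hox* gene was called higher, against 0.435% of all genes, and none lower, against 1.93%. At an unadjusted p under 0.05, 0 were higher and 3 lower (*Hoxb2*, *Hoxb8* and *Hoxd3*), and DESeq2 called none. These counts also stand without a share of all genes. *Hoxb2* had −1.22 ± 0.45 on the log2 scale (adjusted p = 0.305). Without replica 2 of uninduced P cells the interaction was called in 11 *Hox* genes, 10 of them lower, where 30.2% of all genes were called lower. Without any other library it was called in none.

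By paralog position, the log2 ratios of induction in C cells at position 3 were 0.23 in *Hoxa3*, 0.16 in *Hoxb3* and 2.93 in *Hoxd3*. At position 4, *Hoxa4*, *Hoxb4*, *Hoxc4* and *Hoxd4* had 0.01, 0.75, 0.95 and 2.24, and only *Hoxd4* was called. At position 8, *Hoxb8* and *Hoxd8* were both called, with 2.12 and 1.00. At position 9, *Hoxb9*, *Hoxc9* and *Hoxd9* had −0.70, −2.58 and 0.72. At position 13, *Hoxb13* had 0.54 and *Hoxc13* −2.44. Differences between paralogs were not tested. Paralogs are alike in sequence, and the counting of reads that match more than 1 place is not given in the sources used here. The spans of *Hoxa3* with *Hoxa4*, *Hoxa5* and *Hoxa6*, and of *Hoxb3* with *Hoxb4*, overlap as well, and their split of the counts is uncertain. The antisense genes *Hoxb3os*, over *Hoxb2*, and *Hoxb5os*, over *Hoxb5* and *Hoxb6*, add the same doubt for reads of either strand.

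In P against C cells before induction, position 9 had log2 ratios of 2.87 in *Hoxb9*, 1.22 in *Hoxc9* and 0.25 in *Hoxd9*, and position 13 had 1.67 in *Hoxb13* and 1.70 in *Hoxc13*. With both P replicas all 5 posterior genes tested had positive ratios, with a median of 1.67. The 6 anterior and 12 central genes had medians of 0.51 and 0.48. With only replica 2 of uninduced P cells, *Hoxb13* had 0.12, *Hoxc9* 0.44, *Hoxd9* −0.04, *Hoxb9* 2.95 and *Hoxc13* 1.74. With only replica 1 they had 2.45, 1.75, 0.50, 2.80 and 1.66. Medians by position were not split by replica. Of the posterior genes, *Hoxb9* and *Hoxc13* were called, the first as a description only, since it passed the filter through P libraries alone. *Hoxb13* was not (SE 1.01, adjusted p = 0.327), with 31 and 9 counts in the P replicas against 4 and 10 in C cells.

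The partners and regulators of *Hox* genes were counted in the same fit. Of 9 Hox cofactors, *Pknox1* among them, 3 rose at day 1 in C cells, *Meis1* and *Meis2* among them, and these 2 also rose in P cells, while none fell. *Meis2* went from 90.9 and 93.6 to 269 and 254 CPM in C cells and from 88.0 and 105 to 215 and 210 CPM in P cells. Its log2 ratios were 1.5 ± 0.14 (adjusted p = 0.000710) and 1.14 ± 0.14 (adjusted p = 0.00272). *Meis3* was the 1 cofactor higher in uninduced P than in uninduced C cells, at 30.1 and 22.8 against 11.2 and 12.1 CPM, with a log2 ratio of 1.18 ± 0.20 (adjusted p = 0.0225). No cofactor was called in P against C cells after induction.

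Of 20 Polycomb genes, 3 rose at day 1 in C cells, *Ezh1* and *Ring1* among them, against 10.7% of all genes. In C cells 1 fell (*Phf19*), against 9.68%. In P cells 2 rose (*Ezh1* and *Phc3*), against 7.65% of all genes, and 4 fell (*Phf1*, *Phf19*, *Cbx7* and *Phc2*), against 10.4%. Polycomb calls in P cells are not split by replica of uninduced P cells here, and *Cbx7* differed between those replicas, as given above. *Phf19*, an accessory subunit of the complex that methylates histone H3, had 1.39 and 1.73 CPM in uninduced C cells and 1.92 and 1.71 CPM in uninduced P cells. At day 1 C cells had 0.0789 and 0.159 CPM and P cells 0.684 and 0.7 CPM. Its log2 ratio was −3.66 ± 0.49 (adjusted p = 0.00257) in C cells and −1.38 ± 0.40 (adjusted p = 0.0521) in P cells. It was the 1 Polycomb gene called in P against C cells after induction (2.49 ± 0.50, adjusted p = 0.0475), and none was called at day −2. The *Phf19* ratios that use induced C cells rest on few counts, as 3 counts corresponded to 0.118 and 0.119 CPM there. Of 10 genes of the MLL and UTX group, which oppose Polycomb, *Kdm6b* rose in C cells (1.31 ± 0.27, adjusted p = 0.0131) and no other call was made.

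Of 8 genes of retinoic acid signalling and other upstream factors, 4 could be tested. *Cyp26b1*, which breaks down retinoic acid, had 15.7 and 16.1 CPM in uninduced C cells and 154 and 76.2 CPM in uninduced P cells. At day 1 C cells had 12.7 and 13 CPM and P cells 19.8 and 18.6 CPM. It was higher in both P replicas of day −2 than in any other library. P cells differed from C cells by a log2 ratio of 2.86 ± 0.32 (adjusted p = 0.00524) at day −2 and 0.57 ± 0.31 (adjusted p = 0.443) at day 1. It fell in induced P cells (−2.58 ± 0.32, adjusted p = 0.00253). *Rara*, a retinoic acid receptor, rose in C cells (1.45 ± 0.24, adjusted p = 0.00658), and *Rarb* fell in C cells (−3.02 ± 1.03, adjusted p = 0.0733) from at most 0.677 CPM.

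The surroundings of the clusters gave no call. Of 15 non-coding RNAs of the *Hox* clusters, 11 were in the table, 6 of these had 0 counts in every library and none exceeded 10 counts, so that none was tested. Of 12 genes flanking the clusters in the table, 7 were tested and 0 were called in any of the 4 comparisons in edgeR, DESeq2 not being counted for them. At an unadjusted p under 0.05 there were 2 in the induction of C cells (*Skap2* and *Cbx5*), 0 in that of P cells, and 1 in P against C cells on each day (*Calcoco1* at day −2 and *Skap2* at day 1).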

How the data were processed

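RNA-seq was available for 8 libraries of 3T3-L1 cells. The authors removed artifacts with the FASTX-Toolkit, aligned Ion Torrent reads to mm9 with TopHat2 2.0.9, and counted reads per gene against the UCSC refGene table with R packages. The table the authors deposited holds these raw whole-number counts. The handling of strand and of reads with several matches is not given in the sources used here.

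Symbols and gene spans came from a RefSeq list of GRCm38.p6, which matched 23929 of 24013 genes (84 did not match). Overlaps between gene spans were taken from the coordinates of that list, and no mm9 coordinates were used. Tests were run with edgeR 4.0.16, limma 3.58.1 and R 4.3.3. The filter filterByExpr (10 counts at the median library size, 0.428 CPM) left 13339 genes. All 8 libraries entered 1 quasi-likelihood model, with TMM scaling and a mean for each condition. Tests were two-sided, with Benjamini-Hochberg adjustment over all genes tested. Genes were called at an adjusted p-value under 0.1 and a ratio over 2 or under 0.5, the interaction at an adjusted p-value under 0.1 alone. The SE is the size of the log2 ratio divided by the square root of F. The script was tested on simulated data.

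Values in every library are given for members called in any comparison and for the member of each cluster with the highest level per length, and called genes of the other lists are named, up to 5 per list by lowest p. The members and lists were chosen with earlier results of these data known. The alternatives were DESeq2 1.42.0, its size factors, library totals, other filters and thresholds, fits of single comparisons, replica blocks, and leaving out each library. The authors' labels do not tie the replica numbers of different conditions to shared cultures. Some genes are not reported here by name, although counts and medians over lists include them.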

Additional observations from a re-analysis of the deposited data

How the results depend on the processing

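No *Hox* ratio that was called changed its sign under any alternative. Of the day 1 against day −2 calls, 6 in C cells became 2 and 5 in P cells became 3 when at least 10 counts were required in every library, a filter that removes *Hoxb5*, *Hoxb8*, *Hoxb9*, *Hoxc9* and *Hoxc13* by construction. *Hoxd8* passed that filter and was lost in C cells at a log2 ratio of 0.99, and the calls in C cells became 10 with no ratio threshold. Dropping that threshold can only add calls. Shares of all genes are not given for the alternatives in this section. The 5 calls in P against C cells at day −2 became 3 with library totals, 2 with the 10-count filter, 0 with only the libraries of day −2 in the fit and 1 at an adjusted p under 0.05 (*Hoxb9*). The 1 call at day 1 became 0 with the 10-count filter and 2 with only the libraries of day 1 (*Hoxb9* and *Hoxc4*). The causes were not tested where the alternative's construction does not show them. Leaving out 1 library gave 3 to 7 calls in C cells, 4 to 10 in P cells, 0 to 11 in P against C cells at day −2, 0 to 3 at day 1 and 0 to 11 in the interaction. With 2 replicas per condition the calls rest on a spread pooled over genes and conditions, and *Hoxb5*, *Hoxb8*, *Hoxb9*, *Hoxc9* and *Hoxc13* rest on fewer than 10 counts in some libraries.

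With the replicate number as a block, the calls in P against C cells at day −2 became 1 (*Hoxb9*), and no other count moved by more than 1.5 times. The deviations of same-numbered libraries had correlations between −0.519 and 0.267, so the numbers were not taken to pair the libraries. Crossed numbers, added after the data were seen, gave 1 call with P day 1 crossed and 5 with all of day 1 crossed.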
